A study of Mus musculus with 7 samples.

Results

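The genes of fatty acid oxidation and of the peroxisome proliferator-activated receptors (PPARs) were examined in cortex RNA of APP/PS1 mice fed a carbohydrate-rich or a ketogenic diet. The list held 44 genes, chosen by symbol for their known roles, of 23413 gene symbols in the count tables. All 44 were found, and all 44 were among the 15881 genes that passed a filter on low counts. No gene of the list passed a threshold of 0.05 after Benjamini-Hochberg adjustment of the quasi-likelihood p-values of edgeR, and the adjusted p-value of every one was 0.979 or higher. The lowest unadjusted p-values belonged to Acad8, a dehydrogenase of valine breakdown, and Ppargc1a, the coactivator of the PPARs and of mitochondrial biogenesis, both with lower mean levels on the ketogenic diet.

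Fatty acids enter the cell with the help of membrane and cytosolic carriers and are joined to coenzyme A by acyl-CoA synthetases. Long chains cross into mitochondria as carnitine esters and are shortened there in a repeating spiral of dehydrogenation, hydration, dehydrogenation and thiolysis, while peroxisomes shorten very long and branched chains. PPAR alpha and PPAR delta are nuclear receptors for fatty acids that turn on many of these genes in liver and muscle during fasting, with Ppargc1a as a coactivator. The brain oxidises little fat compared with those tissues, mainly in astrocytes, and takes up ketone bodies that the liver makes from fat.

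The 7 sequenced mice were 4 fed control diet (CD) and 3 fed ketogenic diet (KD). All 7 carried the APPswe and PSEN1dE9 transgenes on a B6 background, a model of amyloid deposition, and no wild-type cortex was analysed here. The mice started the diets at 6 months of age, were housed singly, and were studied at 13 months, after 7 months on the diet. By energy, CD was 74% carbohydrate, 10% protein and 16% fat, and KD was under 0.5% carbohydrate, 10% protein and 90% fat. The labels call the control diet SD. They do not give the sex of the mice, and the study used both sexes. Total counts ran from 22272883 to 36614954 per library, and the 44 genes took from 0.221% to 0.254% of them. All 9 neuron markers were detected in every library, but they are not particular to cortex and so do not check the label cortex. CD replicate 4 and KD replicate 3 stood apart from the other libraries on the first principal component of the whole table, at 39.5 and 46.7 against -25.2 to 2.39. Where 1 of the 44 genes or of the other pathway genes lost an unadjusted p under 0.05 without either of them, its value without that library is given. Such values are not given for single cell marker genes. In whole cortex, fewer cells of a type and less RNA per cell cannot be told apart.

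PPARs bind DNA with retinoid X receptors at a direct repeat of the letters AGGTCA with 1 base between, called DR1, and the estrogen-related receptors that work with Ppargc1a bind the extended site TCAAGGTCA. Both contain the core AGGTCA. RefSeq promoter windows of GRCm38.p6 (250 bases before to 50 after each start) were matched for 37 of the 44 genes, with 41 windows. Acad9, Angptl4, Decr1, Acaa2, Fabp5, Abcd2 and Hsd17b4 had none. The 250 bases before the start are shown for the pair of genes with the lowest unadjusted p-values and for the carnitine palmitoyltransferases of the outer side of the pathway, Cpt1a and Cpt1c, with the core in capitals on either strand (TGACCT on the opposite strand). The windows are chr5:51567726-51567975 (minus strand) for Ppargc1a, chr9:26999550-26999799 (minus) for Acad8, chr19:3323051-3323300 (plus) for Cpt1a and chr7:44974852-44975101 (minus) for Cpt1c.
Ppargc1a: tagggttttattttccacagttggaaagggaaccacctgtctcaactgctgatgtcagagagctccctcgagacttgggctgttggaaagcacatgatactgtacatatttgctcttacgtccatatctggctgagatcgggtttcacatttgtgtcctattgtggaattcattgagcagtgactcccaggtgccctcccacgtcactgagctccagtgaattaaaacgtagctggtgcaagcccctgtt
Acad8: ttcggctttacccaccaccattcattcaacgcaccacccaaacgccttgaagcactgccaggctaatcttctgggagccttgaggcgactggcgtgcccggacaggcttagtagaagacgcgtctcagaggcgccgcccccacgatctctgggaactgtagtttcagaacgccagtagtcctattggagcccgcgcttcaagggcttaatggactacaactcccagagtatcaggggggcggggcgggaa
Cpt1a: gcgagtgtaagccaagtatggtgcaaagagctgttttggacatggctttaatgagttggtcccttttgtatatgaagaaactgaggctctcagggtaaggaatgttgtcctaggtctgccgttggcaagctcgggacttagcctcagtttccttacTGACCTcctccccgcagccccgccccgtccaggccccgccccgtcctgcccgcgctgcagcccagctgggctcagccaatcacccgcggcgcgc
Cpt1c: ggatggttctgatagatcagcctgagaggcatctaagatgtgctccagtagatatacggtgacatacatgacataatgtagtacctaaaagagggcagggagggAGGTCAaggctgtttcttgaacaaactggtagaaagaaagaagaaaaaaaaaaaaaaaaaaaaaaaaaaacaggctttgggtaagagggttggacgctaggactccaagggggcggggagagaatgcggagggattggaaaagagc
The Ppargc1a and Acad8 windows held no copy of the core, and Cpt1a and Cpt1c held 1 each.

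Letter by letter, no window of the list held an exact DR1 on either strand, against 0.04% of all 32851 windows. With up to 2 of the 12 fixed letters allowed to differ, 4 of the 41 windows (9.76%) held 1, against 3.86% of all windows. These were the windows of Cd36, Echs1, Etfa and Slc25a20, printed as 13 bases each, with the letters that match DR1 (or its reverse complement) in capitals, read on the strand of the gene.
Cd36: TGgCCTcTGACtT
Echs1: AGGTCAcgGGTCc
Etfa: TtACCTtTGcCCT
Slc25a20: AGGTgAaAGGTCg
The sites lie at chr5:17835947-17835959 for Cd36, chr7:140116492-140116504 for Echs1, chr9:55512308-55512320 for Etfa and chr9:108662142-108662154 for Slc25a20. The extended site was found in the Acsl6 window alone (2.44% of the windows, against 0.423% of all), and the core in 7 windows (17.1%, against 16.3%). These matches describe the letters of the windows and say nothing of binding.

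Per length of transcript, the list spanned a wide range of levels. Levels were set on 1 scale between genes as CPM (read counts scaled to a common library size by TMM) per kilobase of the longest annotated coding transcript, averaged over the 7 libraries. Acot7, a brain acyl-CoA thioesterase, was highest at 89.9 CPM per kb, followed by Acsl3 at 79.9, Fabp5 at 57.8, Fabp3 at 48.4 and Acsl6 at 39.8. The lowest were Cd36 at 0.668 and Angptl4 at 0.766 CPM per kb, 135-fold from the highest to the lowest. Genes of activation and binding thus took most places at the top of the order. The PPAR target genes and the receptors themselves lay low, with Ppara at 2.44 and Ppard at 1.24 CPM per kb. Of the enzymes that act inside mitochondria, Echs1 (30.5), Acadvl (26.6) and Hadhb (21.2) led, and Cpt2 (1.84) and Acads (2.17) were lowest.

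**Figure D1:**
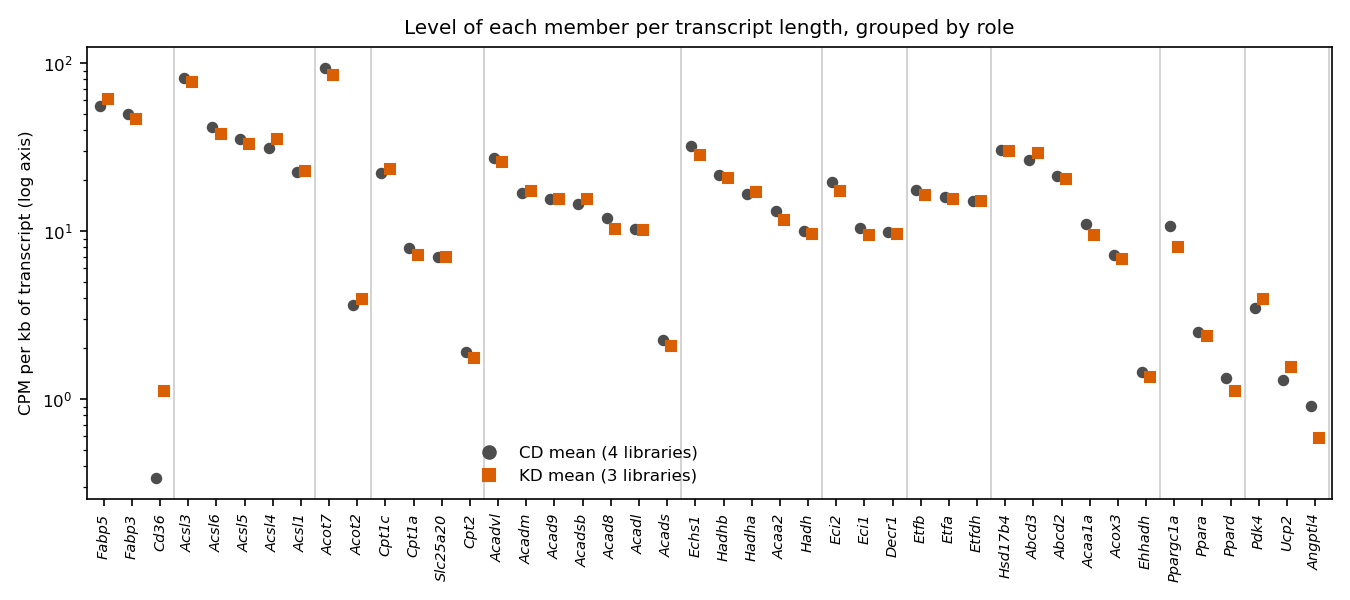
Mean level of each of the 44 genes in CD (circles, 4 libraries) and KD (squares, 3 libraries) as CPM per kilobase of transcript on a log axis, grouped by role. Levels run from 0.668 for Cd36 to 89.9 for Acot7, and the diet means lie close together for most genes.

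KD was then compared with CD to ask whether a diet that supplies almost all energy as fat changed these transcripts in the cortex. At an adjusted p-value under 0.05, 0 of the 44 genes were called, as was 0% of all tested genes. DESeq2 (which gave a p-value for 43 of them), edgeR's likelihood-ratio test and limma-voom each called 0 of the list as well. At an unadjusted p-value of at most 0.01, 0 genes of the list were found, against 0.321% of all tested genes. At an unadjusted p-value under 0.05 there were 2 (4.55%), against 3.19% of all tested genes, and both were lower in KD (background 1.52%) and 0 higher (background 1.66%). The diet groups did not overlap for 2 genes, Acad8 below and Abcd3 above CD, against 4.11% of all tested genes (2.07% with KD lower and 2.05% with KD higher). These shares are near those of all genes.

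The mean log2 fold change lay below 0 for 31 of the 44 genes (70.5%, against 51.0% of all tested genes) and above 0 for 13. The median log2 fold change over the list was -0.07, beside -0.003 over all tested genes. This median moved by over 1.5 times with single libraries left out. It was -0.12 without CD replicate 3 or KD replicate 1, -0.03 without CD replicate 1, -0.02 without CD replicate 4, -0.03 without KD replicate 2 and -0.02 without KD replicate 3, and with both CD replicate 4 and KD replicate 3 left out, 20 genes were lower and the median was 0.01. CD replicate 4 held the highest level of 17 of the 44 genes and KD replicate 3 the lowest level of 13. CD replicate 3 held the lowest level of 10. Summed oligodendrocyte markers were also lowest in CD replicate 3 (1234 CPM) and KD replicate 3 (1248 CPM), against 2386 to 4654 CPM elsewhere, and all 10 markers had a lower mean in KD, 0 of them at an unadjusted p-value under 0.05. The part of these cells in the results was not tested.

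**Figure D2:**
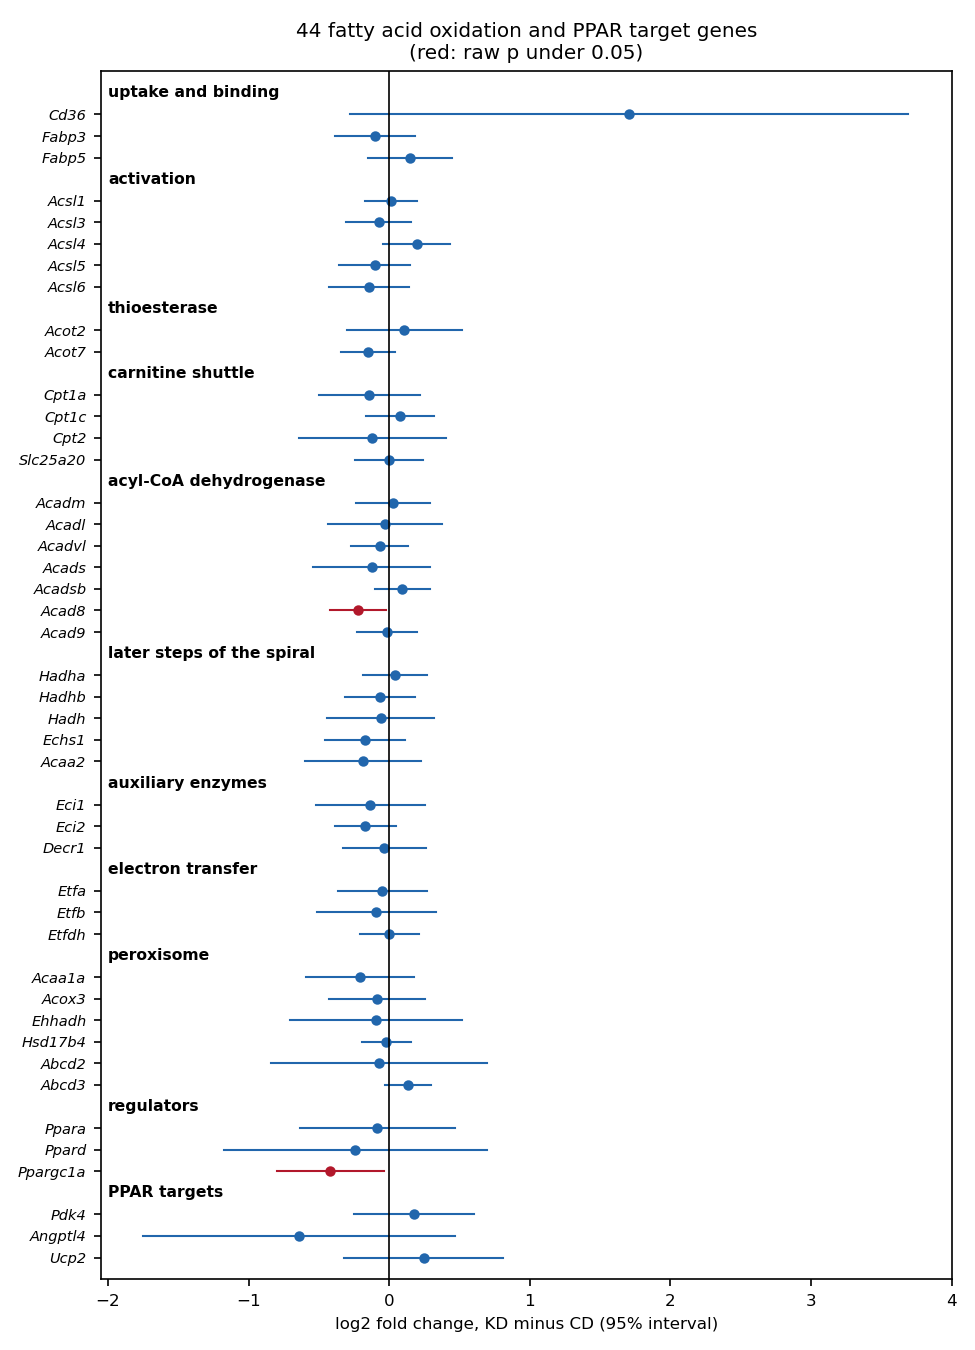
Log2 fold change (KD minus CD) of the 44 genes with its 95% interval from edgeR's quasi-likelihood fit, grouped by role, with unadjusted p-values under 0.05 in red. The intervals of Acad8 and Ppargc1a lie below 0, and those of Cd36, Ppard and Angptl4 are among the widest.

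**Figure D3:**
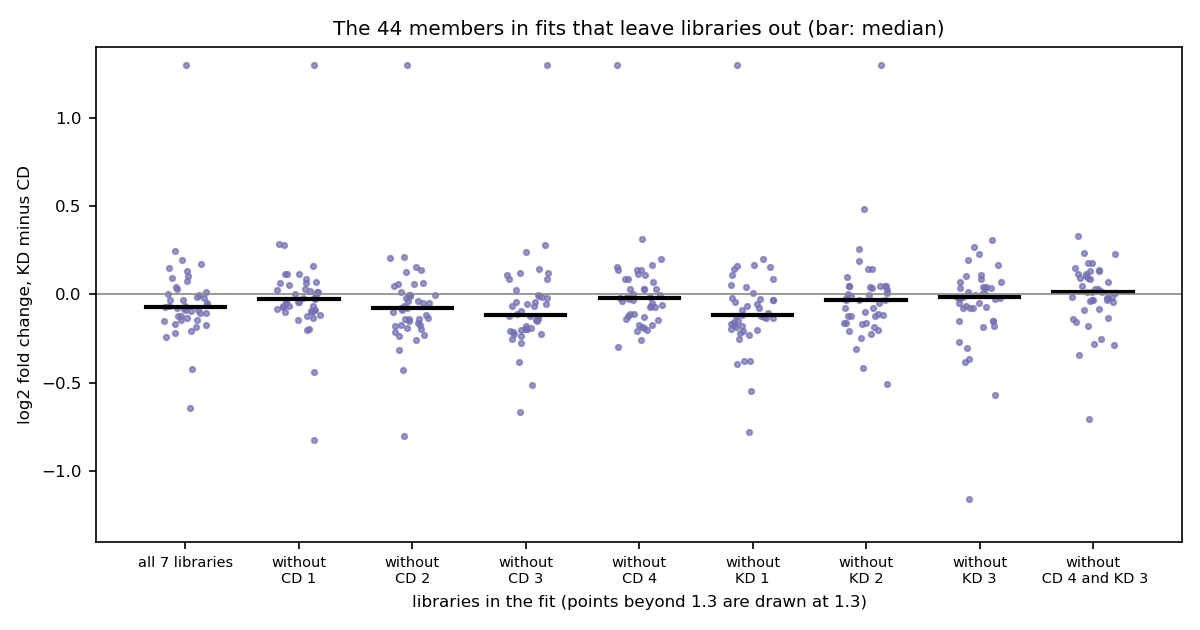
Log2 fold changes of the 44 genes (points) and their median (bar) with all 7 libraries and in fits that leave libraries out, with values beyond 1.3 drawn at 1.3. The median lies at -0.07 with all libraries and at 0.01 without CD replicate 4 and KD replicate 3.

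The data bound the size of the differences. The 95% interval of the log2 fold change lay within a 2-fold change in either direction for 41 of the 44 genes (93.2%, against 77.1% of all tested genes), the exceptions being Cd36, Ppard and Angptl4. For 32 genes (72.7%, against 56.8%) it lay within 1.5-fold. The median width of an interval to either side was 0.297 on the log2 scale. Levels varied little between mice. In 27 of the 44 genes the highest of the 7 libraries was under 1.5 times the lowest, and in 5 it was over 2 times the lowest.

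The receptors and their coactivator come first. Ppargc1a (chromosome 5, 51454250 to 51567726) had 66.8, 68.0, 55.4 and 86.2 CPM in CD replicates 1 to 4. In KD replicates 1 to 3 it had 60.5, 51.5 and 42.9 CPM. All but 1 of the CD libraries lay above every KD library, and CD replicate 3 lay inside the KD range. The means were 69.1 ± 12.7 CPM in CD (SD, n = 4) and 51.6 ± 8.80 CPM in KD (SD, n = 3). Its log2 fold change was -0.42 (95% interval -0.80 to -0.04), with an unadjusted p of 0.0342 and an adjusted p of 0.979 in edgeR's quasi-likelihood test, and p = 0.0857 in the exact permutation test over the 35 ways of assigning the libraries to the diets (two-sided, smallest possible p 0.0286). The unadjusted p was 0.0552 without CD replicate 1, 0.0603 without CD replicate 2, 0.0747 without CD replicate 4, 0.0767 without KD replicate 2 and 0.116 without KD replicate 3 in the same test, where the fold change was -0.31. Without both CD replicate 4 and KD replicate 3 it was -0.18.

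Ppargc1a is most abundant in cortex in parvalbumin interneurons, so their markers were examined beside it, with a list chosen after the data were seen. Of 10 such markers, 8 had a lower and 2 a higher mean in KD. An unadjusted p under 0.05 in edgeR's test was found for 4 of them (40%, against 3.19% of all tested genes). These were Syt2, Kcnc1, Kcns3 and Cplx1, all lower (against 1.52% of all tested genes in that direction). Without KD replicate 3 the mean was again lower for 8, but 1 (Syt2) had such a p (against 2.22% of all tested genes in that fit). The count was also 1 without CD replicate 1 (against 1.63% of all tested genes in that fit) and 2 without CD replicate 2 (against 2.13%). It was 6 without KD replicate 2 (against 4.56%). Without both KD replicate 3 and CD replicate 4 all 10 markers were lower, and 2 (Syt2 and Pvalb) had such a p (against 2.54% of all tested genes). Their summed level ran from 946 to 1201 CPM in CD and from 656 to 941 CPM in KD, where KD replicate 3 was lowest, as it was for Ppargc1a. The share of the Ppargc1a difference that goes with these cells was not tested.

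Ppara (chromosome 15, 85734983 to 85802819) encodes the receptor that drives fat oxidation during fasting. It had 8.43, 6.15, 7.33 and 12.2 CPM in CD and 9.45, 7.12 and 7.57 CPM in KD. The KD values lay inside the CD range. The log2 fold change was -0.09 (95% interval -0.64 to 0.47, edgeR), and it was 0.14 without CD replicate 4, the highest library. Ppard (chromosome 17, 28232700 to 28301474), the more widely expressed receptor, had 5.97, 3.62, 2.99 and 4.76 CPM in CD and 6.0, 3.26 and 1.77 CPM in KD. KD held both the highest and the lowest library. The log2 fold change of -0.24 had an interval from -1.17 to 0.69, and it was 0.08 without KD replicate 3.

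The PPAR target genes with roles outside the oxidation enzymes had fold changes on both sides of 0. Pdk4 (chromosome 6, 5483351 to 5496309) encodes the kinase that shuts pyruvate out of the citric acid cycle and is a classic target in fasted muscle. It had 14.9, 13.2, 10.8 and 9.95 CPM in CD and 14.1, 16.0 and 11.0 CPM in KD, with overlapping groups. For Pdk4 the log2 fold change was 0.17 (95% interval -0.25 to 0.60). Angptl4 (chromosome 17, 33773750 to 33781830), a secreted inhibitor of lipoprotein lipase, had 1.83, 1.95, 2.84 and 5.34 CPM in CD and 1.12, 1.56 and 3.10 CPM in KD. CD replicate 4 was the highest and the other libraries overlapped. On the log2 scale the fold change of -0.64 (95% interval -1.75 to 0.47) was -0.20 without CD replicate 4 and -1.16 without KD replicate 3.

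CD replicate 4 also held the most meningeal fibroblast RNA. Summed over 7 markers it had 317 CPM and KD replicate 3 had 148 CPM, against 48.2 to 88.7 CPM in the other libraries, and all 7 markers had a lower mean in KD, 0 of them at an unadjusted p under 0.05. The part of this tissue in the Angptl4 and Ppara values was not tested. Ucp2 (chromosome 7, 100493337 to 100502020), a mitochondrial carrier, had 5.52, 4.17, 5.07 and 5.89 CPM in CD and 7.68, 3.98 and 6.77 CPM in KD. KD held the highest and the lowest library. Ucp2 had a log2 fold change of 0.25 (95% interval -0.32 to 0.81), and without KD replicate 2 it was 0.48, with an unadjusted p of 0.0496 in edgeR's test. Microglia are a main source of Ucp2 in brain, and 8 of 10 microglia markers had a higher mean in KD. Of these, 2 (Csf1r and Itgam, 20% of the markers) had an unadjusted p under 0.05 in edgeR's test. The share of all tested genes was 3.19% (1.66% higher in KD). Itgam encodes CD11b, and Aif1, another of the 10 markers and without such a p, encodes Iba1. The study reported lower Iba1 and CD11b as protein in hippocampus on KD, which is another measure and tissue. For CD11b the direction was thus opposite to that of the Itgam RNA here, and the reason was not tested. The summed level of the markers ran from 443 (CD replicate 4) to 733 CPM in CD and from 585 to 828 CPM in KD. Their part in the Ucp2 values was not tested.

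**Figure D4:**
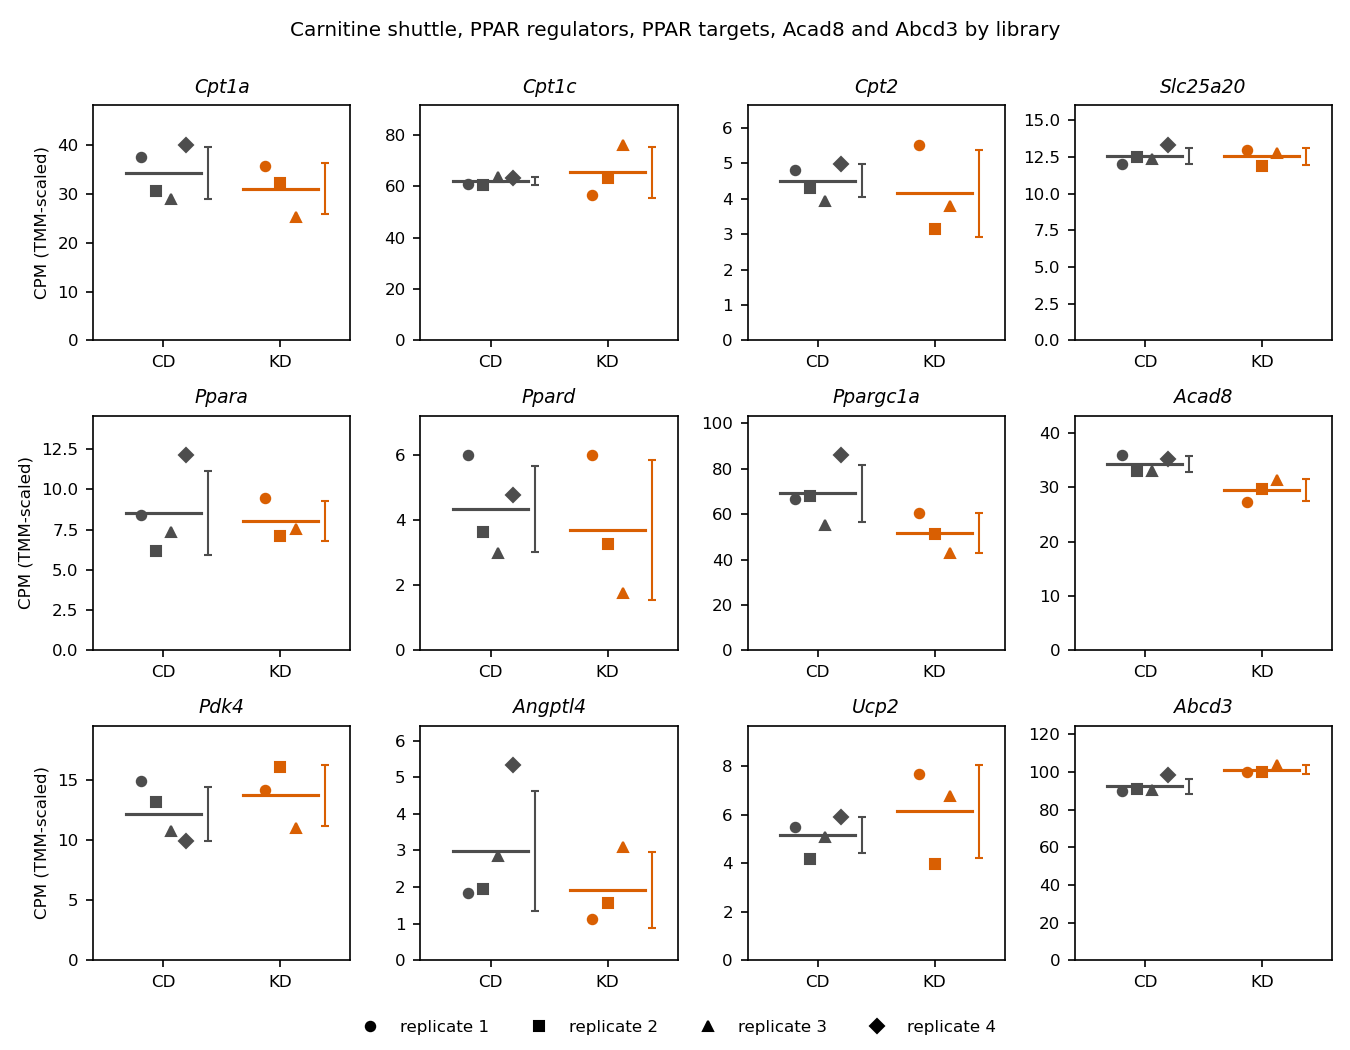
TMM-scaled CPM of 12 genes in each library (markers by replicate number), with the group mean (line) and SD (bar) for CD (n = 4) and KD (n = 3), each panel starting at 0. The groups do not overlap for Acad8, from 33.0 to 36.0 CPM in CD and from 27.4 to 31.4 in KD, and for Abcd3, and they overlap in the other panels.

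Uptake and binding proteins came next. Cd36 (chromosome 5, 17781690 to 17888801), a membrane transporter of fatty acids, had 0.686, 1.27, 0.886 and 1.74 CPM in CD. In KD it had 0.734, 0.808 and 9.78 CPM. KD replicate 3 alone was high, with 221 counts against 17 to 66 in the other libraries, and the other KD libraries lay inside the CD range. The log2 fold change of 1.71 (95% interval -0.28 to 3.69, edgeR) was -0.57 without KD replicate 3 and 2.19 without KD replicate 1 or 2, with an unadjusted p of 0.0280 and 0.0283 in edgeR's test, and the exact permutation p was 0.714. The same library held 24.6 CPM of ventral forebrain markers in sum, against 2.68 to 3.92 CPM in the others. The higher KD mean of Cd36 thus rests on KD replicate 3, where these markers were also high. Their part in the Cd36 value was not tested. Fabp5, a fatty acid carrier of glia and endothelium, had a log2 fold change of 0.15 (95% interval -0.15 to 0.45), and Fabp3, a carrier found in neurons and muscle, had -0.10 (-0.39 to 0.18). Without KD replicate 3, Fabp5 had a fold change of 0.27 on the log2 scale and an unadjusted p of 0.0455 in edgeR's test. Summed, the 3 genes had 96.8 ± 1.86 CPM in CD and 102 ± 10.8 CPM in KD (SD, n = 4 and n = 3).

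The acyl-CoA synthetases, which commit fatty acids to use, were abundant, with small differences between the diets. Their summed level was 965 ± 36.1 CPM in CD and 939 ± 84.6 CPM in KD. Log2 fold changes ran from -0.15 for Acsl6, the brain enzyme that favours docosahexaenoic acid, to 0.19 for Acsl4, which favours arachidonic acid. Acsl4 had 143 to 192 CPM in CD and 186 to 189 CPM in KD, with an interval of the log2 fold change from -0.05 to 0.43. Acsl1, Acsl3 and Acsl5 had log2 fold changes of 0.01, -0.08 and -0.10. Of the thioesterases, which release the fatty acid again, Acot7 had 128 to 152 CPM in CD and 121 to 133 CPM in KD, with a log2 fold change of -0.15 (95% interval -0.34 to 0.04), and Acot2, the mitochondrial form, had 0.11 (-0.30 to 0.52). Acot2 has near-identical relatives (Acot1 and Acot3) among which reads could be split, so its value is uncertain.

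The carnitine shuttle carries long chains into mitochondria and is the main point of control of their oxidation. Cpt1a (chromosome 19, 3322334 to 3385733), the malonyl-CoA sensitive enzyme of the outer membrane in liver and glia, had 37.4, 30.7, 28.9 and 40.1 CPM in CD and 35.7, 32.1 and 25.3 CPM in KD. KD replicate 3 was the lowest, and the other KD libraries lay inside the CD range. Cpt1a had a log2 fold change of -0.14 (95% interval -0.50 to 0.22), and -0.02 without KD replicate 3. Cpt1c (chromosome 7, 44959372 to 44974851) is the neuronal form, located in the endoplasmic reticulum and with little transferase activity. It had 60.9, 60.5, 63.5 and 63.4 CPM in CD and 56.8, 63.4 and 76.2 CPM in KD. KD held the lowest and the highest library, and the log2 fold change of 0.08 (95% interval -0.16 to 0.32) was -0.05 without KD replicate 3.

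Cpt2 (chromosome 4, 107903981 to 107923610), the inner membrane transferase, had 4.80, 4.31, 3.94 and 4.97 CPM in CD and 5.52, 3.14 and 3.80 CPM in KD. KD again held both extremes, and the log2 fold change was -0.12 (95% interval -0.64 to 0.40). Slc25a20 (chromosome 9, 108662088 to 108684641), the carnitine-acylcarnitine exchanger, had 12.0, 12.5, 12.4 and 13.3 CPM in CD and 12.99, 11.9 and 12.7 CPM in KD. The groups overlapped almost fully, with a log2 fold change of -0.003 and an interval from -0.25 to 0.24, so a change of more than 1.5-fold lay outside the interval. Per kilobase of transcript, Cpt1c had 22.7 CPM, Cpt1a 7.62, Slc25a20 7.04 and Cpt2 1.84. The summed level of these 4 genes was 113 ± 6.47 CPM in CD and 113 ± 4.23 CPM in KD. Cpt1c, located in the endoplasmic reticulum, made up 62.1 CPM of it in CD and 65.5 CPM in KD. Cpt1a, Cpt2 and Slc25a20 had means of 34.3, 4.51 and 12.6 CPM in CD. In KD their means were 31.0, 4.16 and 12.5 CPM.

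The acyl-CoA dehydrogenases carry out the first step of the spiral, each for a range of chain lengths, and pass electrons to the electron transfer flavoprotein. Acad8 (chromosome 9, 26974135 to 26999566), the isobutyryl-CoA dehydrogenase of valine breakdown, had 36.0, 33.1, 33.0 and 35.1 CPM in CD. In KD it had 27.4, 29.6 and 31.4 CPM. Every KD library lay below every CD library. The means were 34.3 ± 1.51 CPM in CD (SD, n = 4) and 29.4 ± 2.0 CPM in KD (SD, n = 3). Its log2 fold change was -0.22 (95% interval -0.42 to -0.02), with an unadjusted p of 0.0337 and an adjusted p of 0.979 in edgeR's quasi-likelihood test, and p = 0.0286 in the exact permutation test, the smallest it can give. The unadjusted p was 0.0770 without CD replicate 1, 0.0648 without CD replicate 4, 0.117 without KD replicate 1 and 0.0745 without KD replicate 2 in the same test, with log2 fold changes from -0.27 to -0.17 over the 7 fits that left out 1 library. It was 0.0994 in edgeR's likelihood-ratio test and 0.0923 once replicate numbers entered the fit as a block.

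The other dehydrogenases had values on both sides of 0. Acadm, Acadl and Acadvl, for medium, long and very long chains, had log2 fold changes of 0.03 (95% interval -0.23 to 0.29), -0.03 (-0.43 to 0.37) and -0.07 (-0.27 to 0.14). Acads, for short chains, had -0.13 (-0.54 to 0.29), Acadsb, for short branched chains, 0.09 (-0.10 to 0.29) and Acad9, an assembly factor of complex I as well, -0.02 (-0.23 to 0.20). Of the exon bases of Acadvl, 42.9% are shared with Dvl2 on the opposite strand, and the strand setting of the counting is not given in the sources used here, so reads of the pair may be mixed. The summed level of the 7 dehydrogenases was 301 ± 19.0 CPM in CD and 298 ± 2.92 CPM in KD.

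The later steps of the spiral showed small differences within the spread of the libraries. Hadha and Hadhb, the subunits of the mitochondrial trifunctional protein, had log2 fold changes of 0.04 (95% interval -0.19 to 0.27) and -0.07 (-0.31 to 0.18). Echs1, the short-chain hydratase, had 41.4 to 60.3 CPM in CD and 42.9 to 45.2 CPM in KD, with a log2 fold change of -0.17 (-0.46 to 0.11). Hadh, the short-chain hydroxyacyl-CoA dehydrogenase, had -0.06 (-0.44 to 0.32), and Acaa2, the thiolase, had -0.18 (-0.60 to 0.23). Summed, the 5 genes had 199 ± 23.3 CPM in CD and 190 ± 5.63 CPM in KD. Eci1, Eci2 and Decr1, the auxiliary enzymes for unsaturated chains, had -0.13, -0.17 and -0.03, with 75.1 ± 8.97 CPM in CD and 69.6 ± 4.35 CPM in KD in sum. Eci2 had 30.1 to 36.9 CPM in CD and 29.9 to 30.6 CPM in KD, with an interval of the log2 fold change from -0.39 to 0.04.

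The electron transfer genes link the dehydrogenases to the respiratory chain. Etfa and Etfb, the subunits of the flavoprotein, had log2 fold changes of -0.05 (95% interval -0.36 to 0.27) and -0.09 (-0.51 to 0.33), and Etfdh, its oxidoreductase, had 0.001 (-0.21 to 0.21). Their summed level was 73.6 ± 8.09 CPM in CD and 72.0 ± 3.86 CPM in KD. For Etfb, 53.01% of the exon bases are shared with Gm45233 on the same strand, so its counts are uncertain. In all, 16 of the 44 genes share exon bases with another gene, 13 of them with a gene on the opposite strand.

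In the peroxisome, Abcd3 (chromosome 3, 121758774 to 121815302), a transporter that brings in branched-chain and dicarboxylic acids, stood above CD in every KD library. It had 89.8, 90.8, 90.4 and 98.7 CPM in CD. In KD it had 99.9, 100.03 and 103.96 CPM. CD replicate 4 nearly met the lowest KD library, and with library size alone in place of TMM scaling the groups overlapped. The log2 fold change was 0.13 (95% interval -0.03 to 0.29), with an unadjusted p of 0.0960 and an adjusted p of 0.979 in edgeR's quasi-likelihood test, and p = 0.0571 in the exact permutation test. Abcd2, the transporter of very long polyunsaturated chains, had 149, 135, 119 and 69.2 CPM in CD. In KD it had 131, 147 and 59.4 CPM. CD replicate 4 and KD replicate 3 were low and every other library lay above 118 CPM. Abcd2 had a log2 fold change of -0.07 (-0.84 to 0.70), and 0.05 without both libraries. The same pair had the lowest summed neuron markers, 7227 and 6836 CPM against 8598 to 9197 CPM elsewhere, and the highest olfactory bulb markers, 68.0 and 59.4 CPM against 4.14 to 10.5 CPM. The part of these in the Abcd2 values was not tested.

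Of the peroxisomal enzymes, Hsd17b4, the main bifunctional enzyme, had a log2 fold change of -0.02 (95% interval -0.20 to 0.16), and Ehhadh, its counterpart for straight chains and a PPAR target in liver, had -0.09 (-0.70 to 0.52) at 2.83 to 5.61 CPM. Acox3, an oxidase for branched chains, had -0.09 (-0.43 to 0.25), and Acaa1a, the thiolase, had -0.21 (-0.59 to 0.18). Acaa1a has a near-identical relative, Acaa1b, among which reads could be split. The summed level of the 6 peroxisomal genes was 344 ± 32.9 CPM in CD and 341 ± 49.0 CPM in KD. Over all 44 genes it was 2419 ± 92.2 CPM in CD and 2348 ± 144 CPM in KD, with the lowest sum, 2181 CPM, in KD replicate 3.

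The rest of the pathway was examined with a list of 72 further genes of fatty acid oxidation, lipid droplets and PPAR action, of which 64 passed the filter. Their median log2 fold change was -0.07, with 26 higher and 38 lower in KD. The quasi-likelihood test of edgeR called 0 of them at an adjusted p-value of 0.05, and 5 (7.81%, against 3.19% of all tested genes) had an unadjusted p under 0.05. The count of 5 was 2 without CD replicate 1 (against 1.63% of all tested genes in that fit) and 3 without KD replicate 1 (against 4.01%). It was 1 without CD replicate 2 (against 2.13%), CD replicate 4 (against 2.73%) or KD replicate 3 (against 2.22%). Acot3 and Slc25a14 had higher and Plin4, Rxra and Esrra lower means in KD. Of the 64 genes, the groups did not overlap for 2 with KD higher, Acot3 and Slc25a14 (against 2.05% of all tested genes). They did not overlap for 2 with KD lower, Plin4 and Lpin1 (against 2.07%).

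Plin4, a coat protein of lipid droplets and a PPAR gamma target in fat, had 10.5, 22.6, 10.1 and 26.7 CPM in CD and 9.93, 7.81 and 4.60 CPM in KD. CD was spread over a wide range whose lower end nearly met the highest KD library. This gave a log2 fold change of -1.23 (95% interval -2.18 to -0.28, unadjusted p = 0.0172 in edgeR's test). Without KD replicate 3 it was -0.98 (unadjusted p = 0.0627 in edgeR's test), and -0.69 (unadjusted p = 0.118) without CD replicate 4 as well. Esrra, the estrogen-related receptor that Ppargc1a coactivates, had 28.9, 23.0, 19.0 and 28.0 CPM in CD and 18.0, 20.6 and 11.4 CPM in KD. Only CD replicate 3 lay inside the KD range, the same library as for Ppargc1a. This gave a log2 fold change of -0.57 (-1.08 to -0.06, unadjusted p = 0.0333 in edgeR's test). The unadjusted p of edgeR's test was 0.0504 or higher without CD replicate 1, 2 or 4 or KD replicate 1 or 3. It was 0.0740 without CD replicate 4 and 0.0881 without KD replicate 3, and without both CD replicate 4 and KD replicate 3 the log2 fold change was -0.29 (unadjusted p = 0.152).

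Rxra, the DNA-binding partner of the PPARs, had 45.7, 43.4, 34.1 and 51.4 CPM in CD and 34.7, 32.7 and 35.4 CPM in KD. Here too CD replicate 3 alone lay inside the KD range. This gave a log2 fold change of -0.35 (-0.66 to -0.04, unadjusted p = 0.0317 in edgeR's test), and -0.26 (unadjusted p = 0.0705) without CD replicate 4. The unadjusted p of Rxra in that test was 0.056 or higher without CD replicate 1, 2 or 4 or KD replicate 1 or 2. Slc25a14, a mitochondrial carrier of brain also called UCP5, had 60.1, 57.6, 55.9 and 54.2 CPM in CD and 62.4, 64.7 and 65.3 CPM in KD. The KD libraries were all above CD, and the log2 fold change was 0.17 (0.004 to 0.34, unadjusted p = 0.0455 in edgeR's test). It was 0.15 (unadjusted p = 0.102) without CD replicate 4 and 0.16 (unadjusted p = 0.104) without KD replicate 3. Of the fits that left out 1 library, only the fit without CD replicate 1 kept an unadjusted p under 0.05, and the others gave 0.064 or higher. In edgeR's likelihood-ratio test the unadjusted p was 0.158. Acot3, a peroxisomal thioesterase, had 2.74, 2.77, 2.78 and 2.79 CPM in CD and 3.37, 3.68 and 4.65 CPM in KD, with a log2 fold change of 0.49 (0.05 to 0.93, unadjusted p = 0.0330 in edgeR's test). The value was 0.35 (unadjusted p = 0.144 in edgeR's test) without KD replicate 3 and 0.49 (unadjusted p = 0.0501) without CD replicate 4. For Acot3 only the fit without KD replicate 1 kept an unadjusted p under 0.05 when 1 library was left out. Its reads could be split with Acot1 and Acot2.

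**Figure D5:**
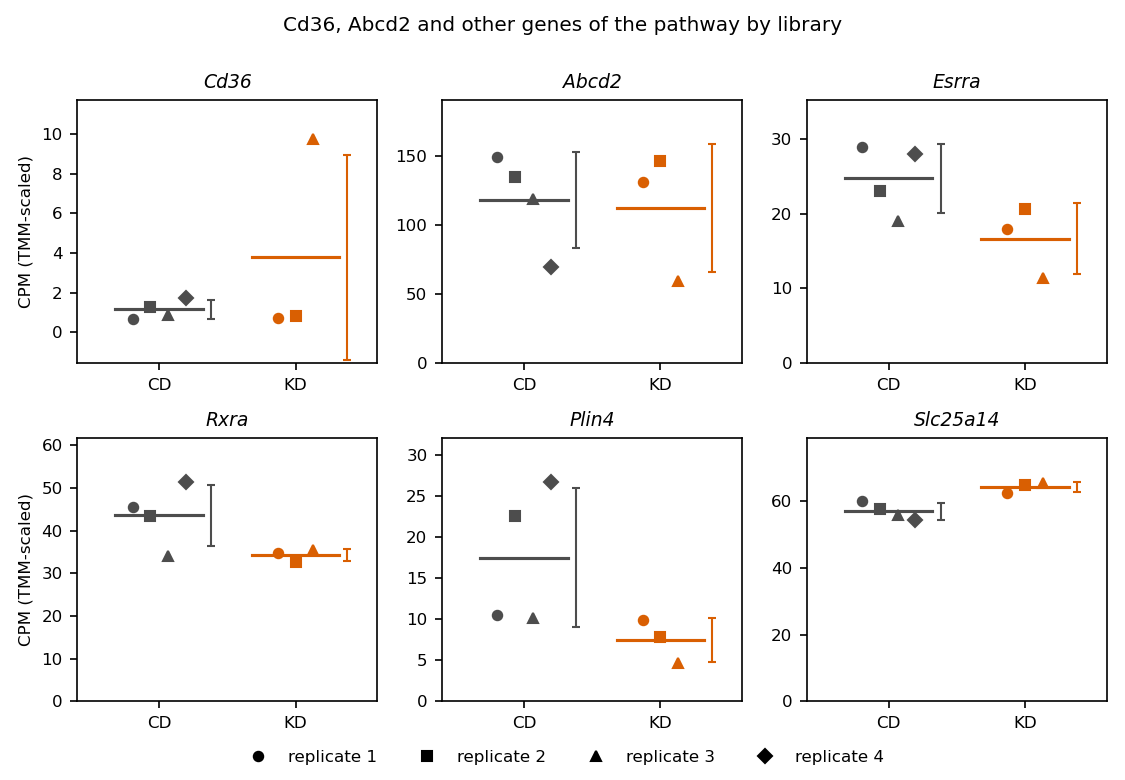
TMM-scaled CPM of Cd36, Abcd2, Esrra, Rxra, Plin4 and Slc25a14 in each library (markers by replicate number), with the group mean (line) and SD (bar) for CD (n = 4) and KD (n = 3). Cd36 is high in KD replicate 3 alone at 9.78 CPM, and Abcd2 is low in CD replicate 4 and KD replicate 3.

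Further cell markers and a hormone response were measured beside the list. Astrocyte markers, from cells that hold much of the fat oxidation of brain, summed to 5737 to 6624 CPM in CD and 5190 to 7867 CPM in KD, with 6 of 10 higher in KD. Endothelial markers (199 to 296 CPM in CD, 191 to 232 CPM in KD) had 7 of 9 lower, and mural cell markers (85.5 to 126 CPM in CD, 86.6 to 101 CPM in KD) had 6 of 7 lower. Choroid plexus markers reached 456 CPM in CD replicate 1, against 10.9 to 69.3 CPM elsewhere. Of the red blood cell list 1 gene passed the filter, at 6.29 to 10.1 CPM in CD and 6.15 to 8.89 CPM in KD. Genes of the glucocorticoid response, which also induces Angptl4 and Pdk4 in some tissues, formed a list not set in advance. Of its 10 genes, 9 had lower means in KD. In edgeR's test 1 of them (Tsc22d3, 10%, against 3.19% of all tested genes) had an unadjusted p under 0.05. Their sums, 455 to 568 CPM in CD and 324 to 430 CPM in KD, did not overlap. Taken singly, the diet groups did not overlap for 0 of the 10 genes (against 4.11% of all tested genes). The part of these markers and of this response in the values of the 44 genes was not tested.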

How the data were processed

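RNA was measured in cortex of 7 APP/PS1 mice. The authors checked reads with FASTQC, aligned them to mm10 with STAR and deposited raw counts per gene symbol, 1 table per mouse, without normalization. Libraries were stranded. The versions, annotation and strand setting are not given in the sources used here. Groups and replicate numbers came from the labels.

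From the deposited counts, edgeR 4.0.16 in R 4.3.3 was run on all genes: filterByExpr (15881 of 23413 symbols kept, 99.97% of counts), TMM scaling (factors 0.978 to 1.04), dispersions by estimateDisp, then glmQLFit (robust=TRUE) followed by glmQLFTest, without covariates, and Benjamini-Hochberg adjustment over all tested genes. Printed CPM are TMM-scaled. Intervals are 95% intervals of that fit. Exact permutation tests used the difference of mean log2 CPM over the 35 ways of assigning libraries to diets. Totals were 22272883 to 36614954 counts, and the lowest count of any of the 44 genes in a library was 17. A floor of 3 counts is 0.0819 to 0.135 CPM, for counting error only. Each library came from 1 mouse, so p-values measure the spread between these mice.

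Values per library are given for genes with an unadjusted p under 0.05 or groups that do not overlap, and for Ppara, Ppard, Ppargc1a, Pdk4, Angptl4, Ucp2, Cpt1a, Cpt1c, Cpt2 and Slc25a20. Of the other pathway genes, those with an unadjusted p under 0.05 are named. Cd36, Abcd2, Lpin1 and the members given with ranges were added after their values were seen. The members, gene lists and rules were chosen with earlier results of these data known. The parvalbumin list, the fits for Cd36 and the fit without both CD replicate 4 and KD replicate 3 were chosen after seeing the data. The glucocorticoid list was also not among the lists set in advance.

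Alternatives were RLE, upper-quartile and library-size scaling, 2 other filters, removal of the 10 most abundant genes, DESeq2 1.42.0, edgeR's likelihood-ratio test, voom of limma 3.58.1, robust=FALSE, log2 CPM of Xist as a covariate, a replicate block and each library left out. The scripts were tested on simulated counts. Gene positions and transcript lengths are from GENCODE M21 on GRCm38, and promoters from RefSeq on GRCm38.p6. Deviations from the group mean correlated between libraries of equal number at 0.251, 0.195 and 0.098, so the numbers were not taken to pair them. No pair of replicates agreed within sampling noise (chi-square per gene 16.1 to 68.3).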

Additional observations from a re-analysis of the deposited data

Results flagged for a closer look

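For 58 values, the 4 CD libraries were checked for a library standing away from the rest by Dixon's test, which divides the gap to the nearest library by the range. Of these, 5 passed its 95% critical value, where chance gives about 2.9, and the values share libraries. CD replicate 2 was low for Etfa (17.2 CPM against 23.5 to 24.5, gap over range 0.881). CD replicate 1 was high for Acox3 (34.7 against 26.2 to 27.3 CPM, 0.860). CD replicate 4 was high for Abcd3 (98.7 against 89.8 to 90.8 CPM, 0.880) and low for the summed neuron markers (7227 against 8845 to 9197 CPM, 0.838). CD replicate 3 was low for the summed oligodendrocyte markers (1234 against 3986 to 4654 CPM, 0.883).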

How the results depend on the processing

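No gene of the list passed an adjusted p of 0.05 or an unadjusted p of 0.01 under any of 20 alternatives. The 2 genes with an unadjusted p under 0.05 became 1 (2.27%) with the replicate block, against 5.89% of all tested genes in that fit. Without 1 replicate there were from 0 to 6. There were 0 without CD replicate 1 (against 1.63%) or CD replicate 4 (against 2.73%). Without CD replicate 3 there were 6 (13.6%, against 7.38%), namely Acad8, Acot7, Acsl4, Echs1, Eci2 and Ppargc1a. Without KD replicate 2 they were Cd36 and Ucp2 (4.55%, against 4.56%). Without KD replicate 3 they were Acaa1a, Acad8 and Fabp5 (6.82%, against 2.22%). Without KD replicate 1 they were Cd36 and Ppargc1a (4.55%, against 4.01%), and without CD replicate 2 Acad8 alone (2.27%, against 2.13%). With edgeR's likelihood-ratio test there were again 2, but Cd36 (unadjusted p = 0.0431) took the place of Acad8 (unadjusted p = 0.0994). The 5 such genes of the other list became 3 with the likelihood-ratio test (against 3.14% of all tested genes) and 3 with the block (against 5.89%). They became 1 without both CD replicate 4 and KD replicate 3 (against 2.54%). Without 1 replicate they were from 1 to 5, where the share of all tested genes ran from 1.63% to 7.38%. The 2 genes without overlap became 1 with library size alone (2.27%, against 4.19% of all tested genes), 6 without both libraries (13.6%, against 15.6%) and from 2 (4.55%, against 5.86% without CD replicate 1) to 8 (18.2%, against 14.3% without CD replicate 3) without 1 replicate. The median log2 fold change kept its sign in 19 of 20 alternatives, from -0.12 to -0.02 without 1 replicate. Ppargc1a, Acad8, Abcd3, Pdk4, Angptl4 and Ucp2 kept theirs in all 20.

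Among single genes, the log2 fold change of Slc25a20 turned to 0.000114 with at least 1 CPM in 3 libraries, 0.00146 with the Xist covariate, 0.0269 with the replicate block and 0.019 without both libraries. Ppara turned to 0.14 with the block and 0.179 without both, where Ppard was 0.13, Cpt1a 0.0703, Cpt1c -0.0328 and Cd36 -0.279. Without 1 replicate the ranges were -0.216 to 0.137 for Ppara, -0.777 to 0.0848 for Ppard, -0.253 to -0.0183 for Cpt1a, -0.0493 to 0.168 for Cpt1c, -0.379 to 0.0488 for Cpt2, -0.0294 to 0.0342 for Slc25a20 and -0.568 to 2.19 for Cd36. The cause was not tested. The numbers do not pair the libraries, and the block left out CD replicate 4. The median total was 23383393 counts in KD and 33935686 in CD.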
